A study of Mus musculus with 8 samples.

Results

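The 10 genes described here build or restrain the cyclin-dependent kinase (CDK) machinery of the cell cycle, and their RNA was followed in the epididymal fat of mice without LPA4. This membrane receptor, whose gene Lpar4 lies on the X chromosome, senses the lipid mediator lysophosphatidic acid. They were the CDK subunit genes Cks1b and Cks2, the D-type cyclin genes Ccnd1, Ccnd2 and Ccnd3, the kinase gene Cdk4, and the inhibitor genes Cdkn1a, Cdkn1b, Cdkn1c and Cdkn2c. All of their probe sets in the platform annotation were taken, 26 of the 34945 probe sets with 1 gene, which gives 10 of 18193 genes. The genes were chosen on earlier results of the comparison of LPA4-KO with WT arrays, in which Cks1b stood among the larger differences, so the differences between genotypes given here describe these arrays, and the p-values printed with them support nothing further.

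Tissue came from 4 LPA4-KO males (Lpar4 -/Y, with the deficient allele on their X chromosome) and 4 WT males, all 12 weeks old, littermates on the C57BL/6 background and on standard chow. Each mouse gave 1 Affymetrix 3′ expression array of whole epididymal white adipose tissue. The receptor was deficient in every cell of the animal and not in fat alone, and whole tissue mixes adipocytes with stromal, vascular, immune and covering cells. A lower value in such tissue can stand for fewer cells of a type or for less RNA per cell, and these cannot be told apart. The labels call the replicates biological, and p-values measure the spread between these 8 mice.

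D-type cyclins bind CDK4 and CDK6 in response to growth signals, and the active kinases phosphorylate the retinoblastoma protein, which releases E2F factors and lets a cell enter S phase. Inhibitors of the INK4 family, such as p18 from Cdkn2c, bind CDK4 and CDK6 themselves, while those of the CIP/KIP family, p21 from Cdkn1a, p27 from Cdkn1b and p57 from Cdkn1c, bind cyclin-CDK complexes. The small CKS proteins dock on CDKs, and CKS1 is also the cofactor with which the ubiquitin ligase SCF-SKP2 recognises p27 for destruction. Mature adipocytes have left the cell cycle, and p18, p21 and p27 are known for their part in the exit of fat cell precursors from it.

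The deposited table sets limits on all of this. Of the 34945 probe sets, 6682 (19.1%) had a range over the 8 arrays above 0.1 log2 and are called varying here. The others had a median range of 0.00052 log2, and such flatness does not show that a transcript stayed the same. Array medians lay between 6.501 and 6.511, and correlations between arrays over the probe sets with 1 gene ran from 0.989 to 0.998. The nearly constant probe sets enter those correlations, and over the varying ones alone the range was 0.952 to 0.992. The control probe sets for RNA quality gave a 3′ minus 5′ difference of 0.56 to 0.60 log2 in LPA4-KO and 0.57 to 0.63 in WT arrays for Gapdh, and of 1.21 to 1.33 and 1.14 to 1.22 for Actb. Of the 3 Lpar4 probe sets, 1452424_at separated the genotypes, with every LPA4-KO array below every WT array (5.80 ± 0.05 against 6.52 ± 0.03, SD, n = 4; limma adjusted p = 0.0033). The other two did not, and their LPA4-KO means were the higher: 7.11 ± 0.46 against 6.43 ± 0.18 at 1434186_at, and 7.35 ± 0.51 against 6.87 ± 0.09 at 1439665_at. Which of the 3 lie within the deleted stretch was not stated in the labels.

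Promoters are shown for Cks1b and Cdkn2c, whose values did not overlap between genotypes. Those of Cks2, the paralog of Cks1b with a flat signal, and of Cdkn1b, the gene of p27, are shown beside them. Cdkn1b values overlapped between genotypes. RefSeq promoter windows of build GRCm38.p6, 250 bases before to 50 after a gene's start, matched 7 of the 10 members with 10 windows. Ccnd1, Ccnd2 and Cdkn1c had no window and are named only. Each sequence is written 5′ to 3′ on the gene's strand, with capitals for matches on either strand of 4 motifs of cell cycle and growth genes. These are the NF-Y box CCAAT, the cell cycle genes homology region (CHR) with the letters TTTGAA, the E-box CACGTG and the E2F motif in its forms TTTCGCGC, TTTGGCGC, TTTCCCGC and TTTGCCGC.
Cks1b, GRCm38.p6 chr3:89418242-89418541, minus strand: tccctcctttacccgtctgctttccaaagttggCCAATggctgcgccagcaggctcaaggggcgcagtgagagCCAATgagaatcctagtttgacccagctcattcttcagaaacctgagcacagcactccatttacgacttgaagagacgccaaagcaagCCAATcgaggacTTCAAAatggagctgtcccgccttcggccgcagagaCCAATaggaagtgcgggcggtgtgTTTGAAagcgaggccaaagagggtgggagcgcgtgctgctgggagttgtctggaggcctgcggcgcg
Cks2, GRCm38.p6 chr13:51644982-51645281, plus strand: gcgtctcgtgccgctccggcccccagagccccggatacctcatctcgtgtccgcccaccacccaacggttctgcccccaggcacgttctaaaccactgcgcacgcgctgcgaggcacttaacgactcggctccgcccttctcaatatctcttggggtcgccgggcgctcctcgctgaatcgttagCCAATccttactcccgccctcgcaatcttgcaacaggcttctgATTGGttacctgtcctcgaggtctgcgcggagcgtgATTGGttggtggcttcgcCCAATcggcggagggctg
Cdkn2c first start, GRCm38.p6 chr4:109666707-109667006, minus strand: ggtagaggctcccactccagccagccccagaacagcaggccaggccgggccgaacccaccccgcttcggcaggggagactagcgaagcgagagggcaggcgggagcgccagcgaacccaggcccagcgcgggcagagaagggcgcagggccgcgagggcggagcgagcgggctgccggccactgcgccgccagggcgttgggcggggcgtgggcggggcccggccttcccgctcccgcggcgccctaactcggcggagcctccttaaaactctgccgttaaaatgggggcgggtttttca
Cdkn2c second start, GRCm38.p6 chr4:109665323-109665622, minus strand: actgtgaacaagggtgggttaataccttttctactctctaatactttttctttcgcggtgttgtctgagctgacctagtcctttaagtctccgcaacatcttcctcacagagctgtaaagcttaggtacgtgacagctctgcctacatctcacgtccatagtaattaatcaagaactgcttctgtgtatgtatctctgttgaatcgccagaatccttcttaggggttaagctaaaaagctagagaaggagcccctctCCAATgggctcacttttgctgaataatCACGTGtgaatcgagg
Cdkn1b, GRCm38.p6 chr6:134920151-134920450, plus strand: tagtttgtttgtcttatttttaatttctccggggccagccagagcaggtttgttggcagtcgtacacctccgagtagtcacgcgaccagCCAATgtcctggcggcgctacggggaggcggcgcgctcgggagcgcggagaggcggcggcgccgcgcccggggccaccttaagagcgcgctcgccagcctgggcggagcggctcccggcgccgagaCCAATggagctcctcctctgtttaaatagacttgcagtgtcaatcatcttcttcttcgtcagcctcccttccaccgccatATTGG

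The Cks1b window held 2 CHR matches, which began 77 bases and 17 bases before the start, and 4 NF-Y boxes, at 217, 177, 89 and 41 bases before it. The Cks2 window held 4 NF-Y boxes as well and 0 CHR matches. Among all 32851 promoter windows of 300 bases, 37.4% had an NF-Y box, 17.9% a CHR match and 6.95% both. The Cdkn1b window had 3 NF-Y boxes and the second Cdkn2c window had 1, with 1 E-box. The first Cdkn2c window had none of the 4 capitalised motifs and 4 matches of the SP1 box GGGCGG, which 35.7% of windows held. No E2F match was found in any of the 10 windows, where 2.27% of all windows had one. The Cdk4 window, not printed, carried 4 E-boxes, the motif of MYC and related factors, which 7.15% of windows held at least once. A match describes letters in the window and not binding.

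**Figure D1:**
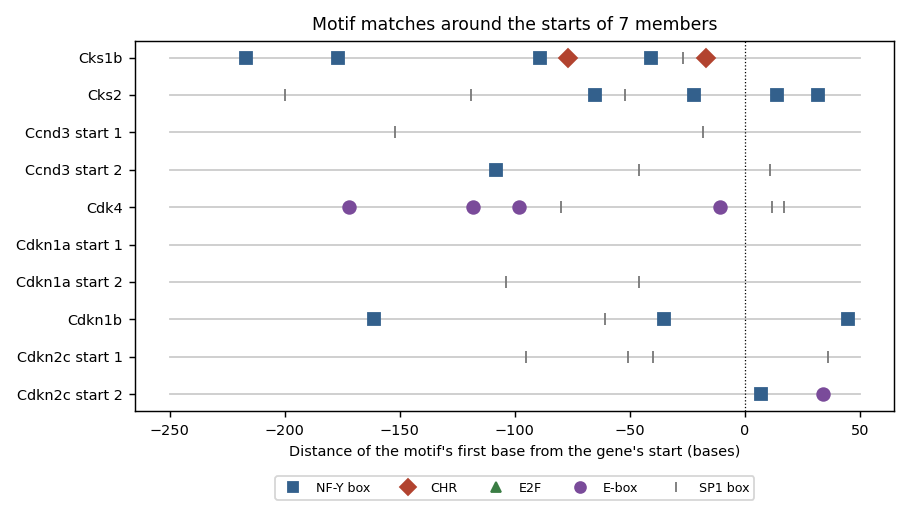
Positions of motif matches on either strand around the starts of the 7 members with a RefSeq promoter window; each grey line runs from 250 bases before to 50 bases after a start, and each symbol marks the first base of a match. The 2 CHR matches lie in Cks1b, 4 E-boxes lie before the Cdk4 start and 1 after the second Cdkn2c start, and E2F has no symbol because it had no match.

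Of the 26 member probe sets, 19 spanned over 0.1 log2 and 7 were nearly constant, with spans of at most 0.00067 log2. Over all probe sets with 1 gene, limma called 1 of the 26 at an adjusted p under 0.05, Cdkn2c, higher in LPA4-KO mice, where 326 of 34945 (0.933%) were called in either direction and 0.612% higher. Values did not overlap between genotypes at 5 of the 19 varying member probe sets, both of Cks1b, 1 of Ccnd2, Cdkn1c and Cdkn2c. The share over all varying probe sets was 28.2%, so that count is near the background. With 1 probe set per gene, 4 of the 8 varying members had positive differences and the median was 0.05 log2. Over all 4646 varying genes 2083 were positive and the median was -0.04.

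The table's many nearly constant probe sets enter that fit and its adjustment. When the 6682 varying probe sets were fitted alone, with a limit on span that was set with the values known, 7 of the 19 members were called. These were both Cks1b probe sets, 3 of Ccnd2 and Cdkn2c, all higher, and Cdkn1c, lower. In that fit 18.8% of varying probe sets were called, 8.35% higher and 10.5% lower. The rule that chose the members used this comparison, so nothing is read from the difference between those shares. The span over the 8 arrays also includes any difference between genotypes, so passing in this fit is not separate support.

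**Figure D2:**
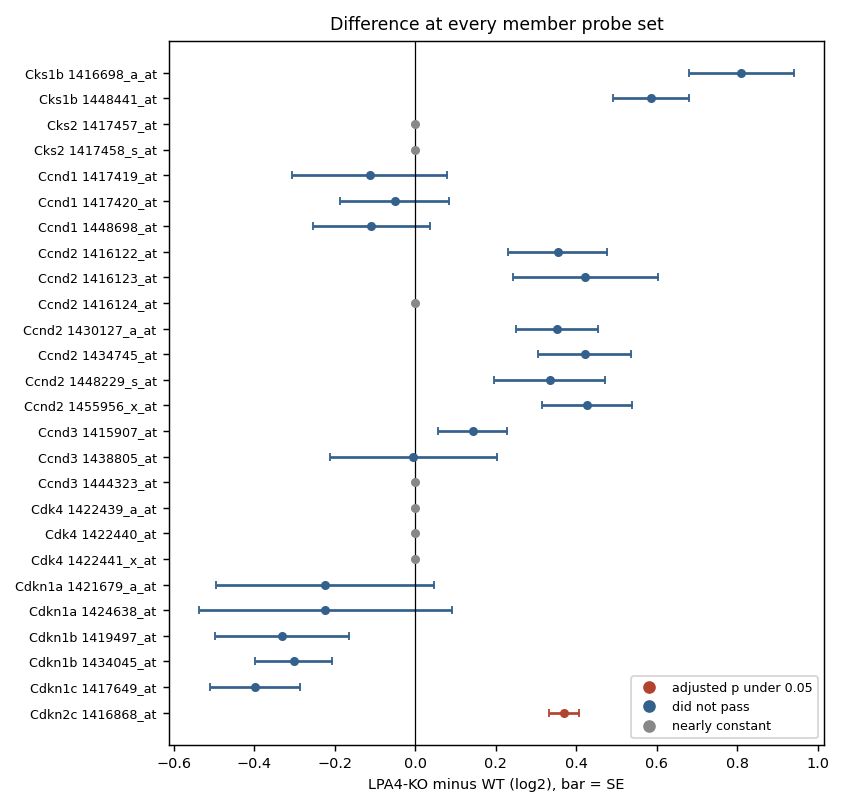
Difference between genotypes, LPA4-KO minus WT in log2, at each of the 26 member probe sets, with bars of 1 SE from limma. Cks1b, 6 of the 7 Ccnd2 probe sets and Cdkn2c lie to the right of 0, the Cdkn1a, Cdkn1b and Cdkn1c probe sets to the left, and the 7 grey points are nearly constant in the deposited table.

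Cks1b had the largest differences of the group. At 1416698_a_at the LPA4-KO arrays, replicates 1 to 4, read 9.65, 9.59, 9.73 and 9.21, and the WT arrays 8.88, 8.62, 8.59 and 8.84. Replicate 4 was the lowest LPA4-KO array and still lay above the highest WT array. The means were 9.54 ± 0.23 and 8.73 ± 0.15 (SD, n = 4), a 1.75-fold higher level (0.81 ± 0.13 log2, SE; limma adjusted p = 0.0575). The second probe set, 1448441_at, read 8.16, 8.16, 8.28 and 7.94 in LPA4-KO and 7.69, 7.42, 7.46 and 7.63 in WT mice. LPA4-KO replicate 4 was again the lowest of its group and WT replicate 1 the highest of its own, and the groups did not overlap. Its difference was 0.59 ± 0.09 log2 (adjusted p = 0.0573). Both Cks1b probe sets missed the threshold over all probe sets. With 1 value per gene the difference at 1416698_a_at passed it (limma adjusted p = 0.0498). It also passed when the varying probe sets were fitted alone (SE 0.12, adjusted p = 0.0079). The call thus depends on which features enter the fit and its adjustment.

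Cks2, whose protein closely resembles that of Cks1b, could not be compared. Its probe sets stood at 6.92 and 6.495 in both genotypes with spans of 0.00036 and 0.00055 log2, too flat in this table for a comparison. At 1417457_at the LPA4-KO values did lie above every WT value, with a difference of 0.00024 log2 (limma adjusted p = 0.105). The 5 named genes whose varying probe sets followed Cks1b 1416698_a_at most closely over the 8 arrays were Mcur1, which encodes a regulator of mitochondrial calcium uptake (Pearson r = 0.985), the heat shock protein 40 gene Dnaja1 (0.972), Qrsl1, a subunit of the mitochondrial glutamyl-tRNA amidotransferase (0.971), Dlat, the E2 subunit of pyruvate dehydrogenase (0.969), and Serhl (0.969). They differed between genotypes by 0.34, 0.54, 0.13, 0.37 and 0.22 log2, in that order. Since a difference between the genotypes is part of those correlations, deviations from the group means were compared too, and there the closest were Pcsk4 (r = 0.993), Pcf11 (0.967), Pabpn1 (0.966), Rpl35 (0.957) and Ciart (0.956). None of these 5 stood among the first 5, and both lists only describe 8 arrays.

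Among the D-type cyclins, Ccnd2 stood apart from Ccnd1 and Ccnd3. At 1434745_at, Ccnd2 read 11.27, 11.16, 11.17 and 10.82 in LPA4-KO and 10.87, 10.54, 10.65 and 10.68 in WT mice. LPA4-KO replicate 4 lay just below WT replicate 1, and the other 3 LPA4-KO arrays lay above every WT array. The difference was 0.42 ± 0.11 log2, or 1.34-fold (limma adjusted p = 0.1505). At 1455956_x_at the values were 10.37, 10.30, 10.43 and 10.09 against 9.99, 9.62, 9.996 and 9.89. This was the 1 Ccnd2 probe set without overlap (0.43 ± 0.11 log2, adjusted p = 0.14). The 6 varying Ccnd2 probe sets agreed in direction, with differences from 0.33 to 0.43 log2 and adjusted p from 0.140 to 0.305, and none passed over all probe sets. They are annotated to the same gene, were read in the same mice and are not separate evidence. LPA4-KO replicate 4 was the lowest LPA4-KO array at every one of the 6. Without it the differences ran higher, for example 0.51 ± 0.08 at 1434745_at (adjusted p = 0.105), and none passed. The 7th Ccnd2 probe set, 1416124_at, stayed at 6.59 in both genotypes.

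Ccnd1 showed no separation at any of its 3 probe sets. At 1417419_at it read 6.996, 7.27, 7.10 and 7.30 in LPA4-KO and 7.73, 6.91, 7.05 and 7.43 in WT mice. The WT arrays spread on both sides of the LPA4-KO range, with replicates 1 and 4 above it. The 3 Ccnd1 differences ran from -0.11 to -0.05 log2, with adjusted p from 0.77 to 0.90. Without WT replicate 1 the difference at 1417419_at turned to 0.04, and without WT replicate 4 those at 1417420_at and 1448698_at turned to 0.05 and 0.0020. At 1417420_at it also turned, to 0.0020, without LPA4-KO replicate 1. Ccnd3, whose protein also pairs with CDK4 and CDK6, read 8.39, 8.33, 8.57 and 8.49 in LPA4-KO and 8.32, 8.11, 8.32 and 8.46 in WT mice at 1415907_at (0.14 ± 0.09 log2, adjusted p = 0.46). The groups overlapped. At 1438805_at the WT values 7.32, 6.46, 6.54 and 7.04 again spread more widely than the LPA4-KO values 6.99, 6.70, 6.89 and 6.77, and the means were both 6.84. The third Ccnd3 probe set, 1444323_at, was nearly constant.

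Cdk4, the catalytic partner of the D cyclins, could not be compared. All 3 of its probe sets were nearly constant, at 7.56, 7.09 and 7.94 in both genotypes with spans of 0.00067, 0.00033 and 0.00050 log2.

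**Figure D3:**
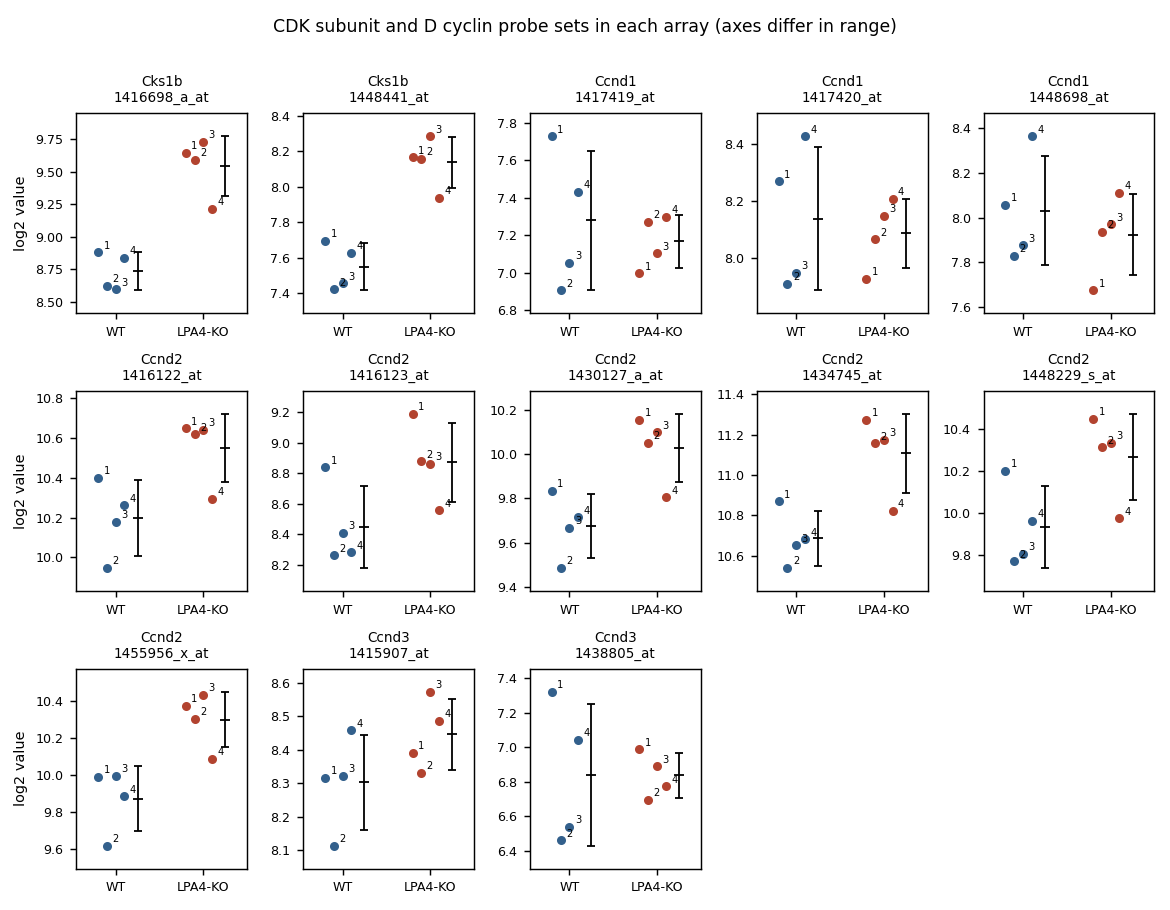
Log2 value in each of the 8 arrays (blue WT, red LPA4-KO, numbered by replicate) at the 13 varying probe sets of Cks1b and the D-type cyclins, with the group mean and SD as black bars; panels have their own ranges. The Cks1b arrays separate by genotype at both probe sets, LPA4-KO replicate 4 is the lowest red point in all 6 Ccnd2 panels, and the Ccnd1 groups overlap.

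The INK4 member Cdkn2c had a positive difference. The CIP/KIP members had negative ones, which did not pass over all probe sets and at Cdkn1a lay within 1 SE of 0. Cdkn2c, the gene of p18, read 9.88, 9.76, 9.77 and 9.75 in LPA4-KO and 9.46, 9.44, 9.36 and 9.42 in WT mice at its 1 probe set, 1416868_at. The gap between the lowest LPA4-KO and the highest WT array was wider than the spread within either group. Cdkn2c rose 1.29-fold, from 9.42 ± 0.04 to 9.79 ± 0.06 (0.37 ± 0.04 log2, limma adjusted p = 0.0268). Its call held without LPA4-KO replicate 1 (adjusted p = 0.038) or WT replicate 1 (0.044) and was lost without any other single array, with adjusted p from 0.056 without WT replicate 2 to 0.075 without LPA4-KO replicate 3. The difference itself ranged only from 0.34 to 0.38 log2 across those fits.

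Cdkn1c, the imprinted gene of p57, read 8.34, 8.44, 8.29 and 8.40 in LPA4-KO and 8.99, 8.46, 8.86 and 8.75 in WT mice at 1417649_at. The groups did not overlap, though WT replicate 2 lay just above the highest LPA4-KO array. The means were 8.37 ± 0.07 and 8.77 ± 0.22 (SD, n = 4), a difference of -0.40 ± 0.11 log2 that did not pass over all probe sets (limma adjusted p = 0.16) and passed among the varying ones alone (adjusted p = 0.036).

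Cdkn1b, the gene of p27, read 8.55, 8.69, 8.51 and 8.34 in LPA4-KO and 8.95, 8.92, 8.67 and 8.75 in WT mice at 1434045_at. The groups touched, with LPA4-KO replicate 2 just above WT replicate 3. The difference was -0.30 ± 0.10 log2 (adjusted p = 0.20). At the second probe set, 1419497_at, it read 6.34, 6.10, 6.10 and 6.09 against 6.97, 6.34, 6.38 and 6.26. Replicate 1 was the high array in both groups there, and the difference of -0.33 ± 0.17 log2 (adjusted p = 0.38) shrank to -0.17 ± 0.07 without WT replicate 1. Both Cdkn1b probe sets kept their negative sign in every alternative.

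Cdkn1a, the gene of p21 and a target of p53, varied more between mice than between genotypes. At 1424638_at it read 7.75, 7.90, 7.94 and 8.98 in LPA4-KO and 8.39, 8.81, 8.07 and 8.20 in WT mice, and at 1421679_a_at 7.30, 7.28, 7.43 and 8.30 against 7.85, 8.17, 7.54 and 7.63. LPA4-KO replicate 4 was the highest of all 8 arrays at both probe sets, while the other 3 LPA4-KO arrays lay below every WT array. The differences were -0.22 ± 0.31 and -0.22 ± 0.27 log2 (adjusted p = 0.79 and 0.74). Without LPA4-KO replicate 4 they were -0.50 ± 0.19 and -0.46 ± 0.16, and neither passed (adjusted p = 0.33 and 0.31).

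**Figure D4:**
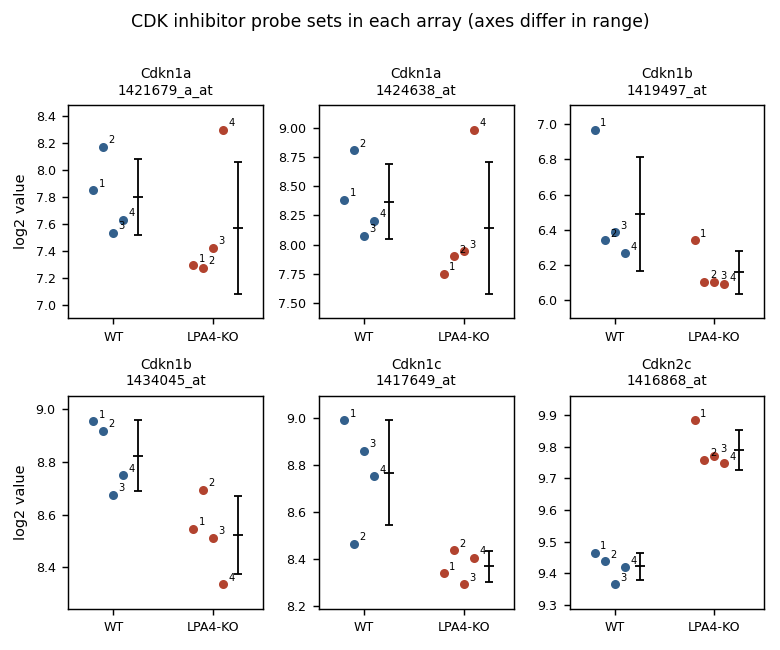
Log2 value in each array (blue WT, red LPA4-KO, numbered by replicate) at the 6 probe sets of the CDK inhibitor genes, with the group mean and SD as black bars; panels have their own ranges. Cdkn2c separates upwards in LPA4-KO mice, Cdkn1c downwards without overlap, and LPA4-KO replicate 4 is the highest point in both Cdkn1a panels.

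Certain arrays took the outer places across the members. LPA4-KO replicate 4 was the lowest of its group at 11 of the 19 varying member probe sets, and the highest at 5, including those of Cdkn1a. WT replicate 1 was the highest WT array at 13 and WT replicate 2 the lowest at 13. Several of these probe sets share a gene, so the counts describe arrays and not independent genes.

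Other genes of the cell cycle were described from 8 lists with 149 measured genes, 39 of which had a varying probe set. Over all probe sets 1 of these 149 genes was called, Cdc45, a part of the replicative helicase, at a nearly constant probe set with a difference of 0.00035 log2 (adjusted p = 0.035). No listed gene with a varying probe set passed. By probe set, 1 of 351 (0.285%) was called, against 0.933% of all probe sets with 1 gene.

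Of 15 measured cyclin and CDK genes outside the members, 2 varied and both had positive differences, with a median of 0.52 log2. Wee1, the gene of a kinase that inhibits CDK1, averaged 7.93 ± 0.33 in LPA4-KO against 7.06 ± 0.70 in WT mice, with overlap (0.86 ± 0.37 log2, adjusted p = 0.31). These values come from its varying probe set, and its other probe set was nearly constant. Wee1 is named for the size of its difference, after its value was seen. Ccne2, the gene of cyclin E2, which activates CDK2 at the start of S phase, averaged 6.78 ± 0.03 with the receptor gene disrupted and 6.61 ± 0.05 in WT mice, without overlap (0.17 ± 0.03 log2, adjusted p = 0.060). Cdk7, of the kinase complex that activates other CDKs, was nearly constant (-0.0013 log2). In the RB and E2F list, 0 of 19 genes passed and all 6 varying members had positive differences with a median of 0.15 log2, against the median of -0.04 over all varying genes. E2f6, a repressor of the E2F family, had the smallest p of its varying members (0.18 ± 0.03 log2, adjusted p = 0.076), and E2f1 was nearly constant. In DNA replication 6 of 7 varying members were positive with a median of 0.14 log2. Pcna, the sliding clamp of DNA polymerases, stood at 10.17 ± 0.05 and 9.99 ± 0.05 without overlap (0.18 ± 0.03 log2, adjusted p = 0.077).

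Markers of dividing cells gave little signal to compare. Of 30 mitosis genes 28 were nearly constant, among them the proliferation markers Mki67 and Top2a, which were picked out for their role after their values were seen. Nek2 and Anln each had 1 varying probe set (0.06 ± 0.15 and -0.09 ± 0.18 log2). The smallest p in the list belonged to nearly constant probe sets of Nek2 and Spc25. In the list of SCF-SKP2 and anaphase-promoting complex ligases, 0 of 20 passed and 4 varied. Skp1, the adaptor of SCF ligases, differed by 0.17 ± 0.06 log2 (adjusted p = 0.23), Cdc20, an activator of the anaphase-promoting complex, was nearly constant, and so were all 6 probe sets of Skp2, the partner of CKS1. Of the 4 inhibitor genes outside the members, Cdkn2b, the gene of p15, was the 1 that varied (0.08 ± 0.06 log2, adjusted p = 0.53), and Cdkn2d was nearly constant.

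In the list of mitogen signals to the D cyclins, which holds receptors, kinases and transcription factors, 0 of 16 genes passed, with 7 of 9 varying members negative and a median of -0.16 log2. Egfr, the epidermal growth factor receptor gene, stood at 7.43 ± 0.16 and 7.86 ± 0.10 at 1424932_at (-0.43 ± 0.09 log2, adjusted p = 0.096). Pdgfra, a receptor gene that also marks fat cell progenitors, stood at 9.02 ± 0.28 and 9.68 ± 0.17 at 1421917_at (-0.66 ± 0.16, adjusted p = 0.115). Both passed among the varying probe sets alone (adjusted p = 0.020 and 0.018), as the only listed cell cycle genes that did. They were 2 of the 39 listed genes with a varying probe set. Over all varying probe sets that fit called 18.8%, and 10.5% as lower, so these calls do not stand out from the background. Of 19 measured targets of p53 besides Cdkn1a, 0 passed, 6 of 8 varying members were negative and the median was -0.23 log2. The 2 with the smallest p, Polk and Eda2r, were nearly constant.

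**Figure D5:**
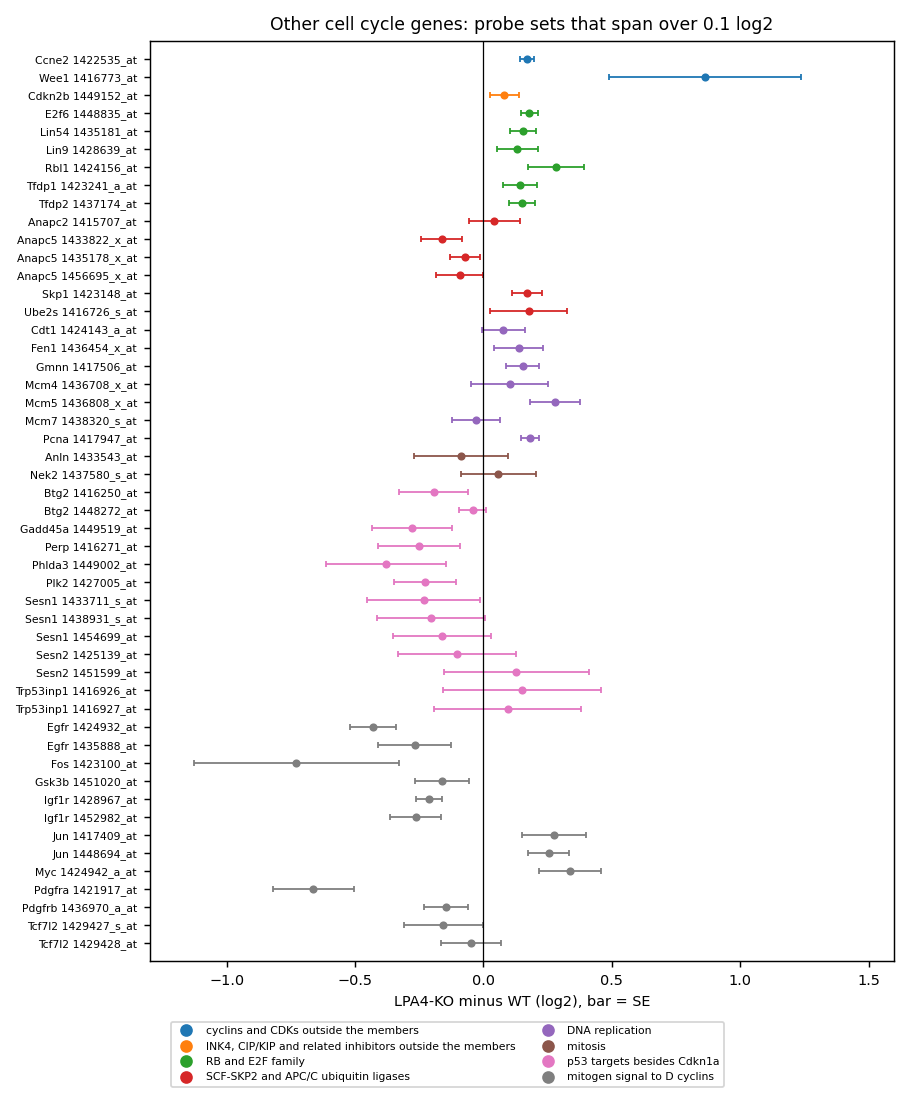
Differences between genotypes, LPA4-KO minus WT in log2 with bars of 1 SE, at the 50 varying probe sets of other cell cycle genes, coloured by list. The 6 RB and E2F points lie to the right of 0, and Egfr, Pdgfra and Igf1r lie to the left.

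Markers of the cell types that whole fat can hold were read in the same arrays. Of these, 2 were called, both in the progenitor and fibroblast list, which has 17 probe sets. Over all probe sets with 1 gene 0.933% were called. Of 8 measured progenitor and fibroblast markers all 8 were negative, and Dpt (-0.43 ± 0.04 log2, limma adjusted p = 0.026) and the Dcn probe set 1441506_at (-0.57 ± 0.08, adjusted p = 0.040) fell. The mean over the list ran from 9.23 to 9.59 in LPA4-KO and from 9.71 to 10.01 in WT arrays, so the groups did not overlap. Among single varying probe sets of all genes, 28.2% did not overlap either. All 10 mesothelial markers were negative and none passed, with list means of 7.45 to 8.005 against 7.82 to 8.68. All 9 varying macrophage markers of 10 measured were negative and none passed (9.94 to 10.16 against 10.06 to 10.41), and Adgre1, the gene of F4/80, was nearly constant. Endothelial markers had 3 of 4 varying members negative (8.38 to 8.76 against 8.71 to 8.95), and 5 of the 9 measured, among them Cdh5 and Kdr, were nearly constant. Of 8 measured adipocyte markers 7 varied, 6 were positive and none passed (11.55 to 11.61 against 11.39 to 11.71). The adipocyte marker Adipoq was nearly constant. Of 6 smooth muscle markers 4 varied, 3 positive and 1 negative, and none passed over all probe sets. Acta2, the gene of smooth muscle actin, averaged 10.42 ± 0.06 against 11.73 ± 0.43 at 1416454_s_at, a difference of -1.31 ± 0.21 log2, larger in size than that of any member (adjusted p = 0.0573). Actg2 had the opposite sign at 1422340_a_at (0.74 ± 0.15 log2, adjusted p = 0.083). Neither overlapped between genotypes, both passed among the varying probe sets alone (adjusted p = 0.0066 and 0.014), and the list means, in which they offset each other, ran from 8.26 to 8.32 against 8.05 to 8.63. The 2 varying of 8 lymphocyte markers were negative and none passed (5.96 to 6.60 against 6.15 to 7.18). All 4 measured markers of epididymal epithelium were nearly constant. The part of these markers in the Cks1b, Ccnd2 and CDK inhibitor differences was not tested.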

How the data were processed

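Per the labels, RNA of epididymal fat from 4 LPA4-KO and 4 WT mice was hybridised to Affymetrix 3′ arrays. The deposited table gives each probe set 1 value in each array, treated here as log2 because of the range from 5.27 to 14.07. R 2.14.0 is named in the submitters' processing notes. How the authors corrected background, normalized and summarised probes, and the log base, is not given in the sources used here.

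GEO's platform annotation gave 34945 of 45101 probe sets 1 gene, 932 several and 9160 none, and 64 were controls. Those with 1 gene were fitted with limma 3.58.1 in R 4.3.3 (lmFit, eBayes with a trend), without filter or block, after the steps were tested on simulated data. Benjamini-Hochberg adjusted p under 0.05 counted as called. At that threshold the test on simulated data recovered 37% of the 1.5-fold changes put in and 71% of the 2-fold ones. A change of such size can therefore fail to pass. The members and gene lists were chosen with earlier results of these data known. Named genes are every member, all called and the 2 smallest-p genes per pathway list, Lpar4, and the 5 genes most correlated with Cks1b by value and by deviation. Other genes, among them Wee1, Anln, Mki67, Top2a, Skp2 and the cell type markers, were named after their values were seen. Same-numbered mice of the 2 groups were not treated as pairs. Promoters are RefSeq windows of GRCm38.p6, and no coordinates of the arrays were used. Arrays carry no read depth, and their number limits the precision.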

Additional observations from a re-analysis of the deposited data

Results flagged for a closer look

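In each of the 38 groups of 4 arrays at the 19 varying member probe sets, the outermost array was compared with its neighbours, and 5 stood apart from the other 3 by a gap above Dixon's critical value, where chance gives about 1 group in 20. LPA4-KO replicate 4 was the array apart in 3 of the 5. It was low for Ccnd2 at 1416122_at, at 10.30 where the other LPA4-KO arrays lay between 10.62 and 10.65. It was high for Cdkn1a at 1424638_at, at 8.98 against 7.75 to 7.94, and at 1421679_a_at, at 8.30 against 7.28 to 7.43. The Cdkn1a probe sets read the same gene and count as 1 observation. At Cdkn1b 1419497_at, LPA4-KO replicate 1 stood at 6.34 above 6.09 to 6.10, and WT replicate 1 at 6.97 above 6.26 to 6.38. That WT gap was 0.830 of its range, barely above the critical value. What set these 5 apart was not tested.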

How the results depend on the processing

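Limits are the 4 arrays a group and the many nearly constant probe sets. Calls are given for member probe sets, listed cell cycle genes and all features, against 1, 1 and 326 (214 higher, 112 lower). With 1 value per gene they were 2, 0 and 239 (highest probe set) or 2, 0 and 236 (mean), above the median level 3, 4 and 595, and among varying probe sets 7, 2 and 1259. Quantile normalization gave 15, 116 and 19712 (18596 higher, 1116 lower) with a shift of 0.0036 log2 in the median of all probe sets, and median centring 3, 1 and 283 with 0.0044. Array weights gave 3, 6 and 877, the equal-variance test 1, 0 and 144, an adjusted p under 0.10 3, 11 and 1126, and one under 0.01 0, 0 and 1. Of settings added after seeing the data, varying probe sets gave 7, 3 and 1287 with quantile normalization and 7, 2 and 1266 with centring. Leaving out 1 array gave 0 to 1, 0 to 1 and 10 (LPA4-KO replicate 2) to 125 (WT replicate 1). The cause of these moves was not tested.

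The labels share replicate numbers between genotypes. Over the varying probe sets, deviations of same-numbered arrays from their group means correlated weakly and not always positively (r = 0.09, 0.08, 0.27 and -0.20). Of the 4 numbers, 2 correlated best with their own. With the replicate number as a block the counts were 0, 0 and 3, Cdkn2c had an adjusted p of 0.0996, and among varying probe sets, added later, the block gave 7, 3 and 959. Cdkn2c kept its call in 10 of the other planned settings and in 2 of 8 with 1 array left out. Cks1b 1416698_a_at passed in 10 of 22 settings, in 1 of which the value was the mean of both Cks1b probe sets. The differences ran from 0.70 log2 for that mean to 0.92 without LPA4-KO replicate 4, with limma adjusted p from 0.0071 to 0.184. The settings added after seeing the data are among those 10 (adjusted p from 0.0071 to 0.025). With any 1 array left out Cks1b 1416698_a_at did not pass (adjusted p from 0.066 to 0.147).

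The differences that changed sign were all uncalled. Ccnd3 1438805_at was 0.0094 with quantile normalization, among all or varying probe sets, and 0.041 with array weights. With 1 array left out it ran from -0.13 to 0.16, and Ccnd1 ran from -0.24 to 0.037 at 1417419_at, -0.13 to 0.045 at 1417420_at and -0.18 to 0.0020 at 1448698_at.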
